A study of Mus musculus with 6 samples.

Results

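The Src and Syk family signaling kinases and their phosphatases, 9 of the 52636 genes listed, were followed in bone marrow neutrophils. They are the kinases Fgr, Lyn, Syk, Btk, Csk, Fes and Ptk2b and the phosphatases Ptpn6 and Ptprc. They were taken by gene symbol, each from 1 row of the expression table, by a rule that sets no limit on a measured value. The data came from 6 libraries of primary neutrophils from the bone marrow of C57BL/6N mice aged 10 weeks, 3 WT and 3 carrying floxed Lrp5 alleles and a Cre recombinase under Lyz2, named LRP5-null here. Lyz2 is expressed in neutrophils, monocytes and macrophages, so that the Cre acts in the myeloid lineage and not in neutrophils alone. Expression was given as TPM, which is scaled by transcript length, so that levels of different genes may be set side by side within a library. No label says whether mice were pooled, and the p-values measure the spread between these libraries.

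In neutrophils, integrins, Fc receptors and C-type lectins signal through tyrosine kinases of the Src and Syk families. Src family kinases (Fgr and Lyn among them) phosphorylate the activation motifs, called ITAMs, of adaptors such as Fcer1g and Tyrobp, and Syk then docks on these motifs and phosphorylates adaptors, exchange factors and phospholipases that drive adhesion, phagocytosis, the oxidative burst and degranulation. Btk is a Tec family kinase downstream of Syk, Ptk2b (Pyk2) a focal adhesion kinase of leukocytes, and Fes a separate non-receptor kinase of myeloid cells. Csk holds Src family kinases inactive by phosphorylating an inhibitory tyrosine in their tail, and Ptprc (CD45) removes that phosphate. Ptpn6 (SHP-1) is a phosphatase recruited to inhibitory receptors that carry ITIM motifs. All of these act through phosphorylation, and the data here hold transcript levels only.

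The libraries differed in ways other than their label, and these are given first. Lrp5 stood at 1.84 ± 0.21 TPM in the libraries labelled LRP5-null and at 1.29 ± 0.15 TPM in WT (SD, n = 3 each). It was thus not reduced by this measure. Both levels are low, and a TPM of the whole gene cannot show whether a floxed part was lost. Every direction below rests on the labels. Lyz2, the site of the Cre, was at 13792 ± 375 TPM against 25963 ± 1039 TPM (SD, n = 3 each), lower in each LRP5-null library than in any WT library. WT replicate 3 stood apart from the other 2 WT libraries, with 3.30% of its reads from ribosomal RNA against 1.20% and 1.30%, while the LRP5-null libraries had 2.69% to 2.98%. Reads within introns made up 8.6%, 7.78% and 9% of reads in WT and 10.95%, 11.23% and 10.62% in LRP5-null, with no overlap. Because WT replicate 3 stood apart in its ribosomal share, values of the 9 genes are given with and without that library. Its share was, however, the only WT share near those of the LRP5-null libraries. Without it, the label and the ribosomal share cannot be told apart, here or for any gene called in that fit. Total reads ran from 249841492 to 340580330 per library. The number of reads behind a single TPM value is unknown.

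The 9 genes were all well above the filter on low values (1 TPM on average), and ran from 64.9 TPM for Btk to 734 TPM for Ptprc as means over the 6 libraries. Ptprc lay above 98.8% of the 9775 genes tested and Btk above 85.1%. In WT the order was Ptprc, Fgr, Ptpn6, Syk, Lyn, Fes, Ptk2b, Csk and Btk. Within WT, the ranges of Fgr and Ptpn6, of Lyn and Fes, and of Ptk2b and Csk overlapped, while the other neighbours in this order did not overlap. In the libraries labelled LRP5-null the order was the same except that Fes (184 ± 8.60 TPM) stood before Lyn (178 ± 9.66 TPM, SD, n = 3 each), with overlapping ranges, and that Ptk2b no longer overlapped Csk. These orders are descriptions with no test.

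Differential expression between the labels was tested with limma on log2(TPM + 1) over all 9775 genes, with Benjamini-Hochberg adjustment. Of the 9 genes, 0 had an adjusted p under 0.05, against 0.532% of all genes tested. At an unadjusted p under 0.05 there were 3 (Lyn, Ptpn6 and Ptprc), all lower in the libraries labelled LRP5-null, where 9.12% of all genes were lower and 14.4% higher by the same limit. In 4 of the 9 (Fgr, Lyn, Ptpn6 and Ptprc) every library labelled LRP5-null lay below every WT library, as was the case for 12.3% of all genes, and 0 of the 9 lay wholly above, against 17.4% of all genes. The intronic share of reads was higher in each of the same LRP5-null libraries, and its part in these values was not tested. The median log2 fold change was −0.09 over the 9 genes and 0.04 over all genes tested, and 7 of the 9 values were negative. Most of the genes tested were at lower levels than these 9. Over the genes averaging at least 5 TPM the median was 0.02.

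**Figure D1:**
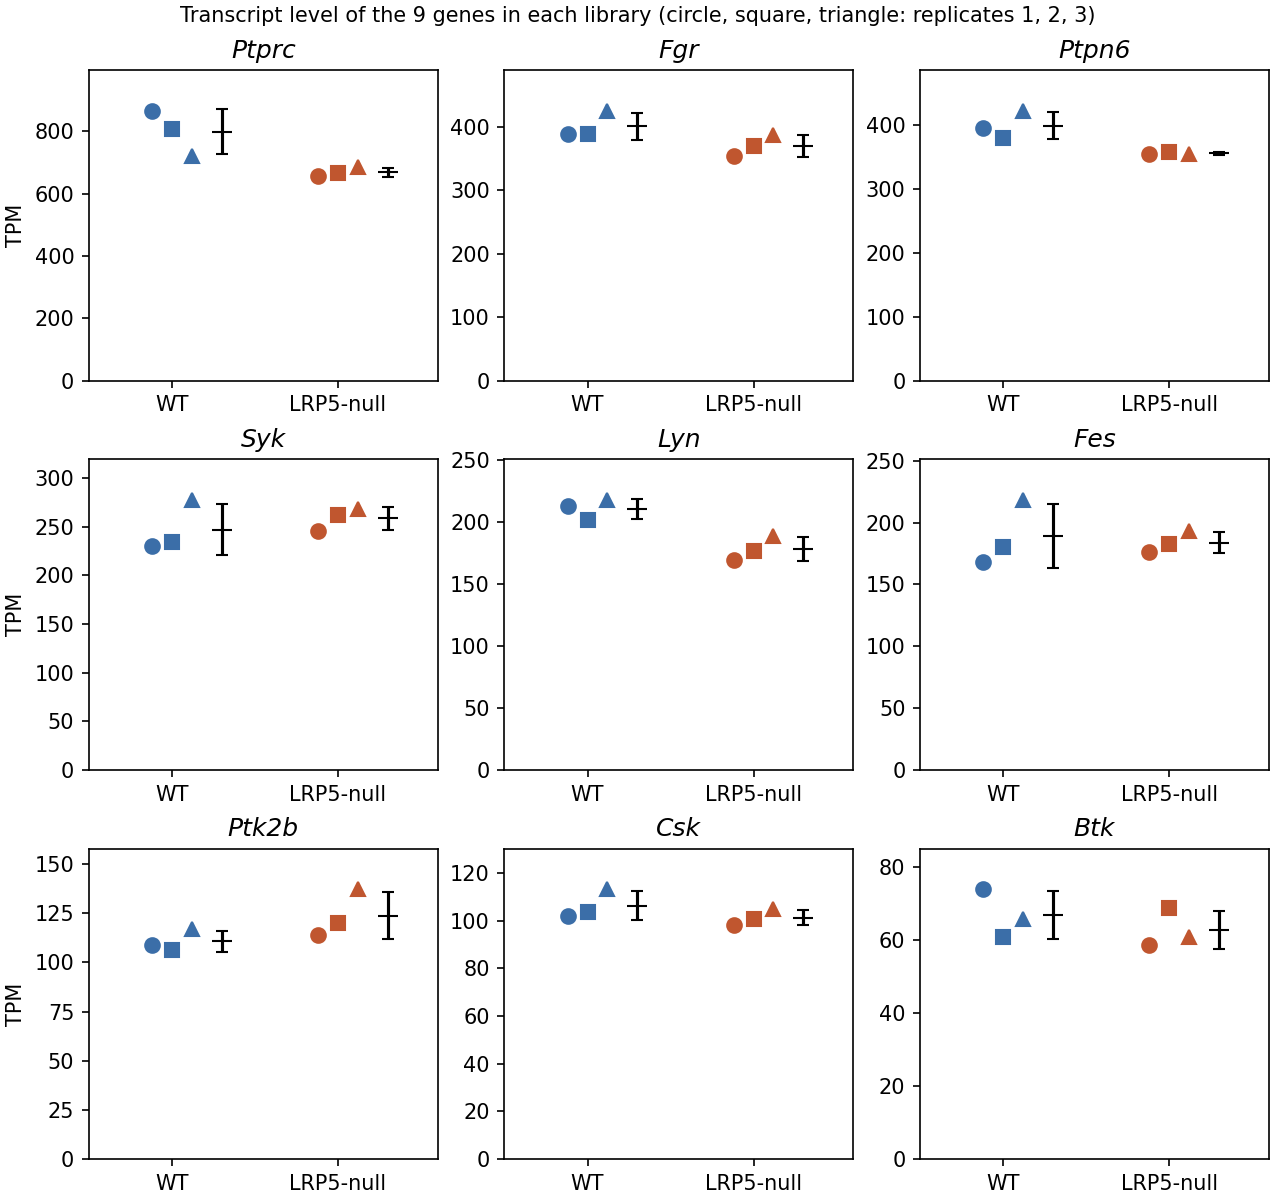
TPM of each of the 9 genes (vertical axis, from 0) in the 3 WT (blue) and 3 LRP5-null (orange) libraries, with the mean and SD beside the points. Fgr, Lyn, Ptpn6 and Ptprc lie lower in every LRP5-null library than in any WT library, and the groups of the other 5 genes overlap.

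Of the 2 Src family kinases among the 9 genes, Fgr was the more abundant. Its level was 388, 388 and 425 TPM in the WT libraries, always given in the order of their replicate numbers, and 353, 369 and 387 TPM in the libraries labelled LRP5-null. The groups did not overlap, although the highest LRP5-null library lay only just below the lowest WT library. The log2 fold change was −0.11 (standard error 0.068, adjusted p = 0.344 from limma), and −0.07 without WT replicate 3. Fgr is encoded on chromosome 4 from 132530010 to 132557825 on the plus strand of NCBIM37 (mm9).

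Lyn, which in myeloid cells also phosphorylates ITIM receptors and so has both activating and inhibitory roles, was at 212, 201 and 217 TPM in WT and at 169, 177 and 189 TPM in the libraries labelled LRP5-null. All 3 of the latter were lower than the lowest WT library. Its log2 fold change of −0.24 (standard error 0.069) had the smallest p of the 9 genes (adjusted p = 0.129 from limma). Lyn lies on chromosome 4 from 3605262 to 3740269, on the plus strand. The change did not pass the threshold in any of the 18 alternative fits, in which its log2 fold change stayed between −0.29 and −0.19, with −0.21 without WT replicate 3.

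Syk, the kinase that docks on phosphorylated ITAMs, overlapped between the labels. It was at 229.8, 234 and 278 TPM in WT and 246, 262 and 269 TPM in the libraries labelled LRP5-null. WT replicate 3 was the highest of all 6 and the other 2 WT libraries the lowest. The log2 fold change was 0.07 (standard error 0.088, adjusted p = 0.654 from limma). It was 0.16 without WT replicate 3, −0.10 against WT replicate 3 alone and −0.06 once trends with GC content and length were removed. Its direction thus differed with the WT libraries used and with the removal of these trends. Syk lies on chromosome 13 from 52678542 to 52744161 on the plus strand of NCBIM37.

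Btk, best known for B cell receptor signaling and also expressed in myeloid cells, was at 74.1, 60.9 and 65.9 TPM in WT and 58.7, 68.8 and 60.9 TPM in the libraries labelled LRP5-null. The groups overlapped, and the log2 fold change was −0.09 (standard error 0.097, adjusted p = 0.601 from limma). With 1 library left out it ran from −0.016 (without WT replicate 1) to −0.16 (without LRP5-null replicate 2) and was −0.10 without WT replicate 3. Beside Btk, Cd79a, an essential part of the B cell receptor, was at 3.34 to 4.46 TPM, and no marker of the B cell list exceeded 5.43 TPM in any library. Of the other Tec family kinases, Bmx was higher than Btk in every library, at 163, 144 and 136 TPM in WT and 109, 112 and 116 TPM in LRP5-null. Bmx had a log2 fold change of −0.39 (standard error 0.082, adjusted p = 0.0818 from limma), larger than that of any of the 9 genes. Its adjusted p was 0.0166 without WT replicate 3 and 0.0299 with the trends with GC content and length removed. Tec itself was at 20.3 ± 1.92 TPM in WT and 21.7 ± 0.711 TPM in LRP5-null (SD, n = 3 each).

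With Bmx lower and Btk nearly level, Btk made up a larger share of the Tec family in the libraries labelled LRP5-null. The Btk share was 28.6%, 26.9% and 29.0% in WT and 30.7%, 33.4% and 30.2% in LRP5-null, with no overlap (difference of 3.27 percentage points, p = 0.1 in a two-sided exact permutation test, which with 3 libraries a side can give no smaller p). The corresponding Bmx share was 63.0%, 63.6% and 59.9% against 56.9%, 54.4% and 57.3%. Leaving out any 1 library kept the difference in the Btk share between 2.27 and 3.91 points.

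**Figure D2:**
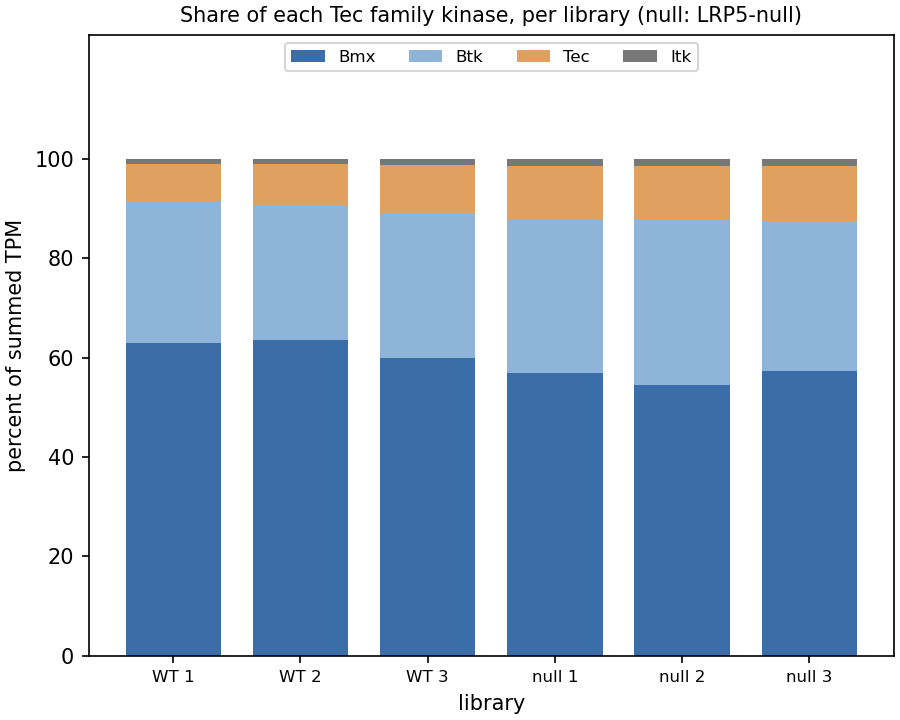
Share of each Tec family kinase (stacked bars, percent of the summed TPM of the family) in each of the 6 libraries. The LRP5-null libraries have Bmx at 54.4% to 57.3% and Btk at 30.2% to 33.4%.

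Fes and Ptk2b, the 2 kinases of other families, overlapped between the labels. Fes was at 168, 181 and 218 TPM in WT and 176, 183 and 193 TPM in the libraries labelled LRP5-null (log2 fold change −0.03, standard error 0.10, adjusted p = 0.871 from limma). WT replicate 3 alone lay above all the others, and the log2 fold change was 0.08 without it and −0.25 against it alone. Ptk2b was at 109, 107 and 117 TPM in WT and 114, 120.1 and 137 TPM in LRP5-null, with the highest of the latter far above the rest. Its log2 fold change was the highest of the 9, at 0.16 (standard error 0.086, adjusted p = 0.310 from limma), and this was 0.20 without WT replicate 3, 0.081 without LRP5-null replicate 3 and 0.06 once trends with GC content and length were removed. Both are encoded on the minus strand, Fes on chromosome 7 (87522641 to 87532832) and Ptk2b on chromosome 14 (66772094 to 66899889).

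Of the regulators of these kinases, Ptprc had the largest difference. It was at 865, 808 and 722 TPM in WT and 656, 665 and 685 TPM in the libraries labelled LRP5-null. The LRP5-null libraries lay close together, and all were lower than WT replicate 3, the lowest WT library. The log2 fold change was −0.25 (standard error 0.077, adjusted p = 0.139 from limma). Without WT replicate 3 it was −0.32 and passed the threshold (adjusted p = 0.0183 from limma), the only 1 of the 9 to do so, in a fit in which 7.57% of all genes were called lower and 12.1% higher. In that fit the label and the ribosomal share cannot be told apart. Against WT replicate 3 alone the log2 fold change of Ptprc was −0.11. Ptprc is encoded on the minus strand of chromosome 1 (139959438 to 140071882), and its transcript was the poorest in GC of the 9, at 41.9%, above only 10.3% of the tested genes with a GC value.

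Ptpn6, at 395, 380.0 and 422 TPM in WT, was at 354, 359 and 354 TPM in the libraries labelled LRP5-null. The 3 LRP5-null values were nearly identical and lower than any WT value. The log2 fold change was −0.17 (standard error 0.063, adjusted p = 0.180 from limma), and −0.12 without WT replicate 3. Ptpn6 is encoded on the minus strand of chromosome 6 (124670725 to 124688732). Csk, the kinase that restrains the Src family, was at 102, 103 and 113 TPM in WT and 98.2, 100.9 and 105 TPM in LRP5-null, with overlapping groups (log2 fold change −0.07, standard error 0.070, adjusted p = 0.583 from limma). Without WT replicate 3 it was −0.021.

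In a further fit, the trends of each library with the GC content and the length of transcripts were removed together, so that the parts of GC content and length were not told apart. In that fit 2 of the 9 passed the threshold, Ptpn6 (log2 fold change −0.26, adjusted p = 0.0408 from limma) and Fgr (−0.18, adjusted p = 0.0454), where 4.9% of all 8769 genes with a GC value were called. Of all the genes called, 157 were higher and 273 lower. Lyn was then at −0.19, Csk at −0.20, Fes at −0.16 and Ptprc at −0.15, with adjusted p between 0.0636 and 0.0765. None of the 9 was called both in this fit and in the fit without WT replicate 3. Csk had the highest GC content of the 9, at 60.2%, and Fes the next, at 58.3%, against a median of 50.0% over the tested genes.

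**Figure D3:**
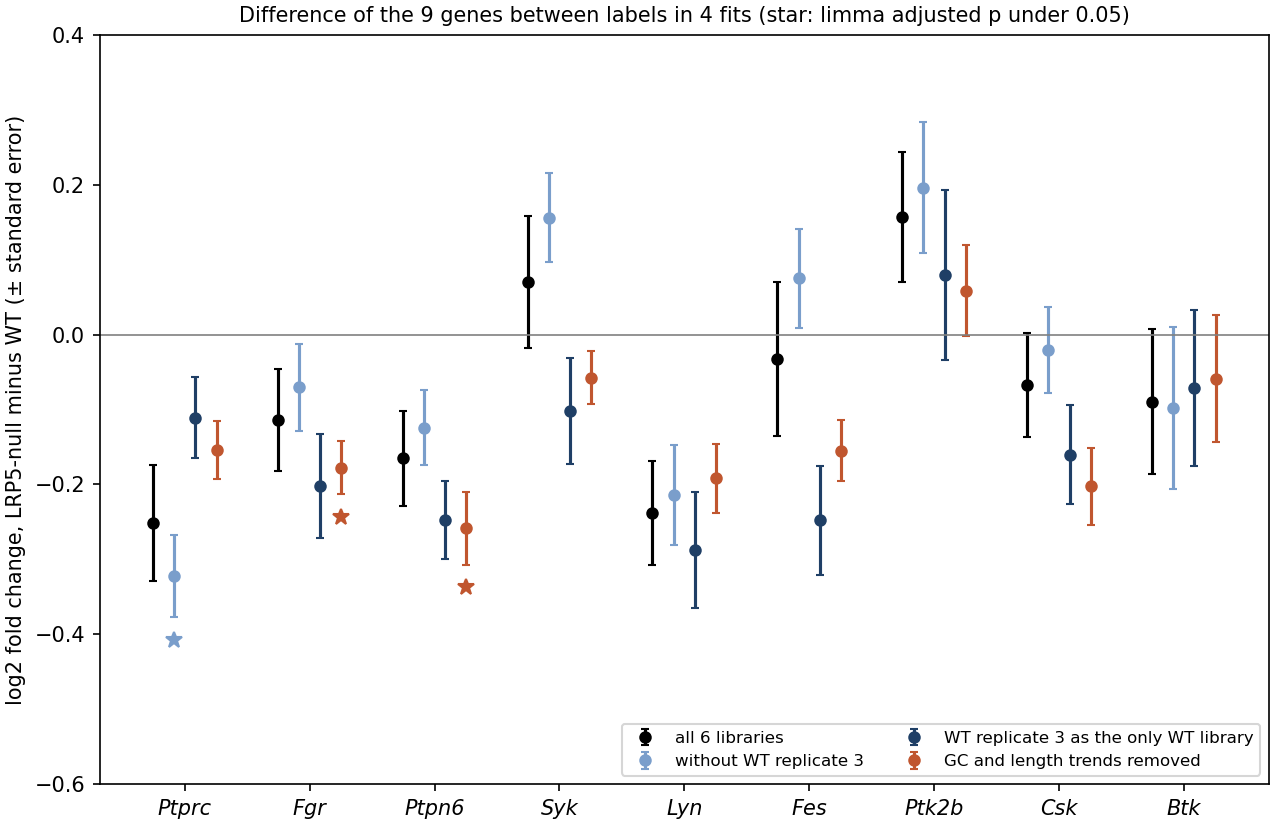
Log2 fold change (LRP5-null minus WT, with its standard error) of the 9 genes in the fit on all 6 libraries, without WT replicate 3, with WT replicate 3 as the only WT library, and with trends with GC content and length removed. Lyn, Fgr, Ptpn6, Ptprc, Csk and Btk stay below 0 in all 4 fits, Ptk2b stays above 0, and Syk and Fes cross it. Stars mark the 3 values with an adjusted p under 0.05.

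The balance of regulator to kinase was examined within libraries, where it does not depend on the scaling of a library. The ratio of Ptpn6 to Syk was 1.72, 1.62 and 1.52 in WT and 1.44, 1.37 and 1.32 in the libraries labelled LRP5-null. Each LRP5-null library was lower than each WT library. On the log2 scale the difference was −0.24 (exact permutation test, two-sided, p = 0.1). It was −0.15 against WT replicate 3 alone and −0.20, with no overlap, once trends with GC content and length were removed.

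The ratio of Ptprc to Csk, the phosphatase and the kinase that act on the same inhibitory tyrosine, was 8.49, 7.81 and 6.38 in WT and 6.68, 6.59 and 6.54 in LRP5-null. WT replicate 3 had the lowest of the 6 values, and the groups overlapped (log2 difference −0.18, exact permutation test, p = 0.4). The difference was −0.095 without WT replicate 1, −0.30 without WT replicate 3, 0.051 against WT replicate 3 alone and 0.050 once trends with GC content and length were removed.

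**Figure D4:**
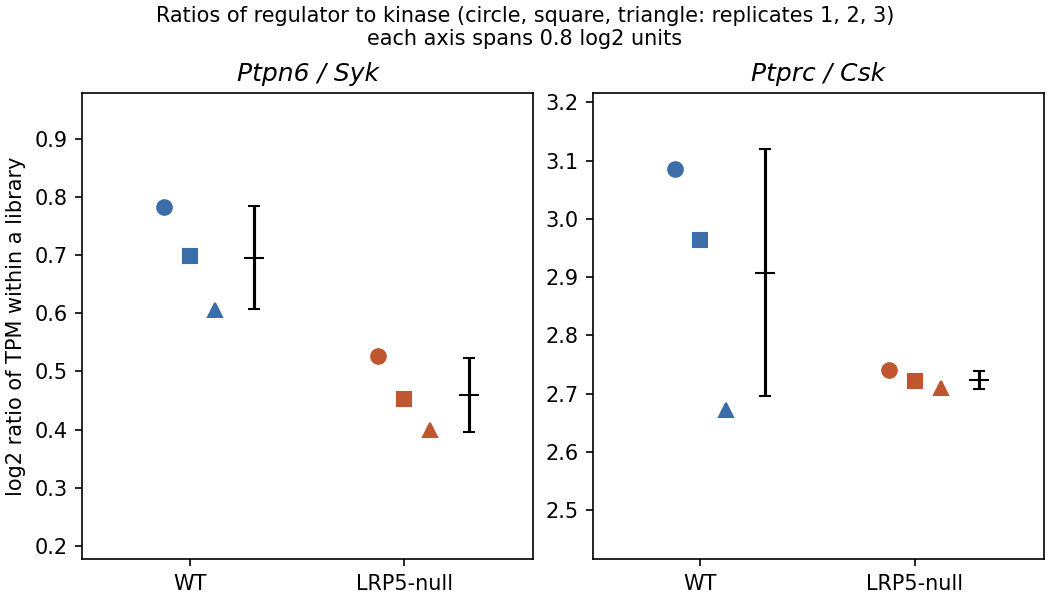
Log2 ratio within each library of Ptpn6 to Syk and of Ptprc to Csk, by label, with the mean and SD beside the points. The first ratio is lower in every LRP5-null library, and in the second WT replicate 3 lies below the LRP5-null libraries.

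A pair of further ratios was chosen after the values were seen, so no p-value is given for it. Syk exceeded Lyn by a factor of 1.08, 1.16 and 1.28 in WT and 1.45, 1.48 and 1.42 in the libraries labelled LRP5-null. Lyn over Fes was 1.26, 1.11 and 0.996 in WT and 0.963, 0.967 and 0.977 in LRP5-null, which is the exchange of places seen in the order of levels. The log2 fold changes of Lyn, Fes and Syk were −0.24, −0.03 and 0.07. With trends with GC content and length removed they were −0.19, −0.16 and −0.06.

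Promoter sequences are shown for the genes whose libraries did not overlap and for Syk, whose libraries did. They are the 250 bases before the annotated start in RefSeq (GRCm38.p6), printed 5′ to 3′ on the strand of the gene. Ptprc and Syk each have another start, not printed, and no rule is given for which start is shown. The printed windows thus do not compare motifs between these genes. Of the 9 genes, 7 had an entry and Lyn and Ptk2b had none. Capitals mark matches on either strand of GAGGAA and of GGAAGT, short motifs of the kind bound by ETS factors such as PU.1, the factor that directs myeloid transcription.
Fgr chr4:132973845-132974094 (plus strand): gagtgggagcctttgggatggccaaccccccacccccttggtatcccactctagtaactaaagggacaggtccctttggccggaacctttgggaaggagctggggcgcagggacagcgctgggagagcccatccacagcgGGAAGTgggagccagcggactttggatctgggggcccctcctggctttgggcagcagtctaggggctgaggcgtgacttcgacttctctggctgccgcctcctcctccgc
Ptpn6 chr6:124738710-124738959 (minus strand): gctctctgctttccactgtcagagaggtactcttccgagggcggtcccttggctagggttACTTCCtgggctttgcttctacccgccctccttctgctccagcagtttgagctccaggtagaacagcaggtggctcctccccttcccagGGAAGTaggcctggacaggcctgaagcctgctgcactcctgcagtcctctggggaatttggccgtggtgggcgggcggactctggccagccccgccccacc
Ptprc chr1:138175306-138175555 (minus strand): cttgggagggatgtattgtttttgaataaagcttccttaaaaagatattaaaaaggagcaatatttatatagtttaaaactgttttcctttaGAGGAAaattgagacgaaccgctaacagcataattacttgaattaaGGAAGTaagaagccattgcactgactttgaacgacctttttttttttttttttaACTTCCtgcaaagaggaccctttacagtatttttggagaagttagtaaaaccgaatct
Syk chr13:52583187-52583436 (plus strand): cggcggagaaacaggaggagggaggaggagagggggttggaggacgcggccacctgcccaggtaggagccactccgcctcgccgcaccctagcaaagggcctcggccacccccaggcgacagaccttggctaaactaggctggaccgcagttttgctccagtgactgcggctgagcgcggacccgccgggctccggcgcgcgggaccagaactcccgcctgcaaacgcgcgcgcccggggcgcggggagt

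GAGGAA was present in 23.2% of all 32851 promoter windows of this length, GGAAGT in 19.7% and at least 1 of them in 36.7%. Among the 10 windows of the 7 genes (Csk, Ptprc and Syk have 2 starts each), 7 windows of 5 genes held at least 1. GGAAGT was found in Fgr, Ptpn6 and Ptprc. In Fgr it began 110 bases before the start, in Ptpn6 101 bases before it and, on the opposite strand, 190 bases before it. The Ptprc window shown held GGAAGT at 112 and, on the opposite strand, 58 bases before the start, and GAGGAA at 158. The Ptprc window not shown held only GGAAGT, on the opposite strand and 237 bases before its start. The 2 Ptprc windows overlap, and this is the same site as that 58 bases before the start in the window shown. The count of windows above thus holds this site in both. The Syk window shown held neither, and its second start had GAGGAA 9 bases before it. The 2 Csk windows held only GAGGAA, and those of Btk and Fes held neither motif. Such matches describe the sequence and are not evidence of binding.

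The other genes of the pathway, in 6 lists, comprised 94 genes, for which 76 rows passed the filter (Itgam and Lilrb4a have 2 rows each, and both were kept). By limma 0 of these had an adjusted p under 0.05, and 13 were lower and 7 higher at an unadjusted p under 0.05, or 17.1% and 9.21%, against 9.12% and 14.4% of all genes. In 19 (25%) all LRP5-null libraries lay below WT, against 12.3% of all genes, and in 9 (11.8%) above, against 17.4%. The median log2 fold change was −0.06 against 0.04 over all genes. Of the further Src family kinases listed (Src, Fyn, Yes1, Lck, Blk and Frk), 0 of 6 passed the filter, and the highest of them, Yes1, was at 0.770 to 1.35 TPM. Without WT replicate 3, 15 of 76 were called (7 higher and 8 lower), where 12.1% of all genes were called higher and 7.57% lower. With trends with GC content and length removed, 10 of 74 were called (1 higher and 9 lower). By the same fit 4.9% of all 8769 genes with a GC value were called, 157 higher and 273 lower. In the single lists that follow, counts of genes wholly below and above WT are to be read against the same 12.3% and 17.4% of all genes.

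Of the 17 activating receptor and adaptor rows tested, 6 (35.3%) lay wholly below WT and 1 (5.88%) above. The 3 of smallest p were Itgb1, a β1 integrin chain (25.0 ± 1.59 TPM in WT and 19.0 ± 1.45 in LRP5-null, log2 fold change −0.38), Clec5a, a receptor that signals through Tyrobp (275 ± 14.5 and 231 ± 10.6 TPM, −0.25), and Trem1, an amplifying receptor that also pairs with Tyrobp (1023 ± 37.7 and 901 ± 30.0 TPM, −0.18; SD, n = 3 each). Their adjusted p were 0.0907, 0.121 and 0.149 in limma. With trends with GC content and length removed, the log2 fold change of Clec5a was −0.03.

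Of the 15 inhibitory ITIM receptor rows, 4 (26.7%) lay wholly below WT and 2 (13.3%) above. Pirb, an inhibitory receptor that recruits Ptpn6 and is phosphorylated by Lyn, was at 298, 287 and 282 TPM in WT and 236, 227 and 247 TPM in the libraries labelled LRP5-null. None of the latter reached a WT value (log2 fold change −0.28, adjusted p = 0.0892 from limma). Cd300a went the other way, with 77.4, 82.1 and 86.0 TPM in WT and 96.2, 100.5 and 100.5 TPM in LRP5-null (log2 fold change 0.27, adjusted p = 0.103 from limma). Both passed the threshold without WT replicate 3 (adjusted p = 0.0234 and 0.0226) and with trends with GC content and length removed (adjusted p = 0.0377 and 0.0383). Clec4a2 was at 173 ± 9.69 TPM in WT and 149 ± 1.55 TPM in LRP5-null (SD, n = 3 each), and its log2 fold change turned from −0.21 to 0.11 with those trends removed.

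Among 17 other phosphatases and brakes, 4 (23.5%) lay wholly below WT and 2 (11.8%) above. Sla, an adaptor that lowers the surface level of immune receptors, was at 256, 255 and 256 TPM in WT and 224, 227 and 227 TPM in LRP5-null (log2 fold change −0.18, adjusted p = 0.141 from limma), 2 narrow and separate ranges. Ptpn12, a phosphatase of adhesion proteins, had a log2 fold change of −0.41 (adjusted p = 0.119) and Ubash3b, a phosphatase that acts on Syk family kinases, of 0.31 (adjusted p = 0.155 from limma). Ptpn11 (SHP-2), at 22.5 ± 2.64 and 23.3 ± 1.40 TPM, was far less abundant than Ptpn6, and Inpp5d (SHIP1), a lipid phosphatase recruited to inhibitory receptors, was at 73.8 ± 13 TPM in WT and 84.6 ± 12.1 TPM in LRP5-null (SD, n = 3 each).

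Of 7 other non-receptor tyrosine kinases tested, 1 (Bmx) lay wholly below WT and 3 above. Tnk2, or Ack1, was at 6.76, 7.54 and 7.64 TPM in WT and 10.9, 9.49 and 12.1 TPM in the libraries labelled LRP5-null (log2 fold change 0.50, adjusted p = 0.0777 from limma), and Abl2 had a log2 fold change of 0.35 with means of 1.74 TPM in WT and 2.48 TPM in LRP5-null (adjusted p = 0.149). Among 20 substrates and downstream adaptors, 4 lay wholly below WT and 1 above. Lcp2 (SLP-76), an adaptor phosphorylated by Syk, had a log2 fold change of −0.24 and Hcls1, an actin regulator and Src family substrate, of −0.17, while Pik3ap1, an adaptor for PI3-kinase, had 0.26 (adjusted p from 0.153 to 0.171 in limma).

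**Figure D5:**
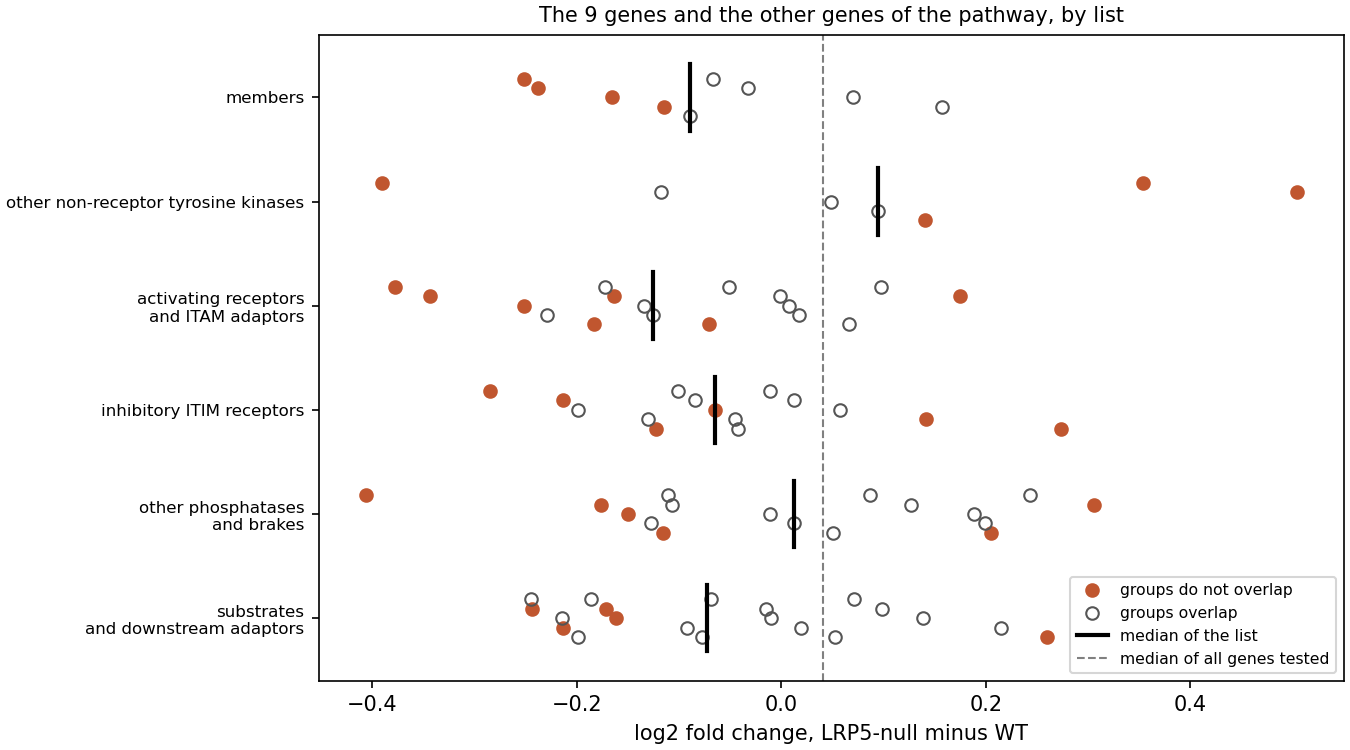
Log2 fold change (horizontal axis, LRP5-null minus WT) of each tested gene of the 9 (top row, members) and of the 5 lists of other pathway genes with any gene tested, with filled points where the 2 groups do not overlap. The medians of these lists run from −0.13 to 0.09, and the dashed line is the median of all genes, 0.04.

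The profiles of the 9 genes over the 6 libraries were also compared with those of the 5228 other genes that reached 10 TPM on average, as the root mean square difference of log2 values after each gene was centred on its own mean. Nearest to Fgr were Ctnna1, Ralb and Ptger4, at 0.012, 0.013 and 0.014 log2 units. Nearest to Lyn were Cap1, Parp14 and Dtx3l, at 0.018 to 0.022, and nearest to Syk were Ap2m1, Lbp and Abhd2, at 0.009 to 0.016. Among the 9 genes, Fgr and Csk were each other's nearest, at 0.027, and so were Syk and Fes, at 0.061. Lyn and Btk were nearest to Ptpn6 (0.061 and 0.11), Ptpn6 to Fgr (0.049), Ptk2b to Syk (0.082) and Ptprc to Lyn (0.099). Between 39 and 794 other genes lay nearer to each of the 9 than did its nearest partner among them. Profiles were not scaled by their range, so genes that vary little lie close by this measure. The range was 0.20 log2 units for Csk, the smallest of the 9, and 0.40 for Ptprc, the largest.

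The labelled cell type was checked by markers. All 10 neutrophil markers were above 1 TPM, Ly6g was at 920.2 to 1104 TPM, and S100a8 and S100a9 were at 106912 to 151287 and 195191 to 230639 TPM. In bulk RNA, fewer cells of a type and less RNA per cell cannot be told apart. Beside the lower values of Lyn, Fgr, Ptpn6 and Ptprc, 6 of 16 mature neutrophil markers lay wholly below WT, against 12.3% of all genes, and 0 above (median log2 fold change −0.16, summed level 39215 to 46124 TPM in WT and 39874 to 41754 TPM in LRP5-null), and 7 of 13 immature markers lay wholly above, against 17.4% of all genes, and 0 below (median 0.20, summed level 72073 to 79396 and 75025 to 79153 TPM). The part of neutrophil maturity in the values of the 9 genes was not tested. Of the markers of other cells, the summed B cell list was at 13.8 to 15.8 TPM in WT and 14.1 to 14.9 TPM in LRP5-null (0 of 6 tested genes without overlap), the T and NK cell list at 11.6 to 13.7 and 15.7 to 17.6 TPM, of which Cd3d made up most while Cd3e did not exceed 0.180 TPM, and the basophil and mast cell list at 2.27 to 3.06 and 2.31 to 2.80 TPM. Eosinophil markers summed to 9.28 to 11.1 and 12.3 to 13.1 TPM, with Prg2 called higher (1.02 TPM in WT and 2.79 TPM in LRP5-null as means, adjusted p = 0.0341 from limma) and Epx at no more than 0.141 TPM. Platelet markers summed to 3.10 to 4.41 and 4.88 to 5.65 TPM, and erythroid markers to 41.4 to 48.4 and 34.4 to 44.6 TPM. Monocyte and macrophage markers summed to 563 to 722 TPM in WT and 633 to 686 TPM in LRP5-null, most of it Ly6c2 (513 to 664 TPM over the 6 libraries), with Csf1r at 31.4 to 42.5 TPM and Ccr2 at 0.863 to 1.21 TPM. Adgre1, the macrophage antigen F4/80, was at 10.3, 11.2 and 12.6 TPM in WT and higher in each LRP5-null library, at 14.4, 14.6 and 15.6 TPM (adjusted p = 0.103 from limma). The part of such cells in the values of the 9 genes was not tested.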

How the data were processed

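RNA was sequenced from bone marrow neutrophils, 3 WT and 3 LRP5-null libraries. The authors aligned the reads to mm9 and named DESeq2, version not given in the sources used here, and deposited TPM values, scaled to 1 fixed total per library; the tool that gave them is not named. The labels name a Percoll gradient and an mRNA kit, whereas the methods name a CD11b and Ly6G sort and a stranded total RNA kit. A summary of reads, also deposited, holds read counts, shares in percent, a coverage bias ratio and a coverage variation score. From it, total reads and the ribosomal and intronic shares were used. The read length in this summary is 94, which differs from the length of the single-end reads named in the methods.

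The 9775 genes averaging at least 1 TPM entered limma 3.58.1 (R 4.3.3). Values were log2(TPM + 1), a scale on which changes of low genes appear too small, with a mean-variance trend, no covariates and Benjamini-Hochberg adjustment (threshold 0.05). TPM holds no counts, so no count model was run and depth sets no error here. Shares and ratios were compared with exact permutation tests in scipy. The fit was tested on simulated data. Libraries were checked for duplicates, and none were found. GC content and length came from the longest protein-coding transcript in GENCODE M1 (NCBIM37), matched by identifier, for 89.7% of the genes, and trends were removed with splines of 4 degrees of freedom. Coordinates are of NCBIM37, while the table's gene identifiers come from a later annotation. Promoters are from RefSeq (GRCm38.p6).

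The 9 genes and all lists were chosen with earlier results of these data known. Named beside them were Lrp5, Lyz2, Tec, Bmx, Ptpn11, Inpp5d, the 3 genes of smallest p in each of the 6 pathway lists and any called there, and the 3 nearest profiles of Fgr, Lyn and Syk. Alternatives were another pseudocount (0.1), filter, scaling and variance model, each library left out, WT replicate 3 alone, the ribosomal share as a covariate, the replicate number as a block and removal of GC and length trends. The last was added for the shares and ratios after the data had been seen. A further gene, with the shares and ratios that need it, is not reported here.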

Additional observations from a re-analysis of the deposited data

Results flagged for a closer look

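The intronic share of reads, taken from the read summary and not from the expression table, was 10.9% ± 0.305 in the libraries labelled LRP5-null and 8.46% ± 0.622 in WT (SD, n = 3 each). It is given here because each LRP5-null library lay above each WT library in a measure that no comparison of the 9 genes used. No test was run on it.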

How the results depend on the processing

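Over 18 alternative fits, the number of the 9 genes called was 0 except without WT replicate 3 (1, Ptprc) and with GC and length trends removed (2, Fgr and Ptpn6). The number of pathway genes called was 0 except in the same fits, at 15 and 10. Leaving out 1 library at a time gave 0 to 1 and 0 to 15 calls. The cause was not tested. The median log2 fold change of the 9 genes was −0.09 and stayed below 0 throughout; it was −0.16 against WT replicate 3 alone, −0.16 with the ribosomal share as a covariate and −0.16 with GC and length trends removed. Over all genes the count of 52 ran from 2 (without LRP5-null replicate 1 or 3) to 1920 (without WT replicate 3). It was 18 without WT replicate 1, 3 without WT replicate 2, 15 without LRP5-null replicate 2, 3 with no filter, 29 with a mean of at least 5 TPM, 96 after rescaling without the most abundant genes, 6 with WT replicate 3 alone or the ribosomal covariate and 430 with the trends removed.

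Of the single genes, Syk turned to −0.10 against WT replicate 3 alone, −0.052 with the ribosomal covariate and −0.058 with the trends removed, and Fes to 0.075 without WT replicate 3 (−0.11 to 0.075 over libraries left out). The other 7 kept their direction in all 18 fits. The log2 ratio of Ptprc to Csk turned to 0.051 against WT replicate 3 alone and 0.050 with the trends removed, while that of Ptpn6 to Syk and the Btk share of the Tec family kept their direction in the 9 alternatives run for each.

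With replicate numbers as a block, 4 genes were called over all genes and 0 of the 9. Whether the numbers pair the samples cannot be told from 3 libraries per label. Same-numbered deviations correlated at 0.23, −0.008 and 0.13. WT replicates 1 and 3 correlated best with their own number, and WT replicate 2 did not. The log2 ratio of Ptpn6 to Syk was −0.24 within numbers (exact sign-flip permutation, p = 0.25, the smallest possible with 3 pairs). The 3 libraries per label and a single WT library with a ribosomal share like the others limit every statement, and TPM carries no depth.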

Other observations

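Fcgr3, an Fc receptor that signals through Fcer1g to the Src and Syk kinases, was at 1165, 1105 and 709 TPM in WT replicates 1 to 3 and at 1155, 728 and 1125 TPM in LRP5-null replicates 1 to 3. The 2 low libraries, WT replicate 3 and LRP5-null replicate 2, bear different labels. It was chosen after its values were seen. Its log2 fold change between the labels was 0.02 (standard error 0.23, adjusted p = 0.973 from limma). Fcer1g was at 1699, 1253 and 1477 TPM in WT and 1254, 1330.2 and 1317 TPM in LRP5-null, and Tyrobp, the other adaptor with an ITAM, at 3937, 4172 and 4319 TPM in WT and 4764, 4759 and 4503 TPM in LRP5-null. Fcer1g overlapped between the labels, and Tyrobp was higher in each library labelled LRP5-null (log2 fold change 0.18, adjusted p = 0.155 from limma). These 2 were also chosen after their values were seen.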
